A study of Drosophila yakuba and Drosophila melanogaster with 20 samples.

Results

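The layout of A-to-I RNA editing sites along the chromosomes was compared between heads of adult Drosophila melanogaster and heads of adult Drosophila yakuba. The unit was the tract, a series of listed sites in which each gap to the next site is 10000 bp or less. All listed positions on arms X, 2L, 3L, 3R and 4 entered. They formed 337 tracts (1044 sites) in D. melanogaster and 383 tracts (1034 sites) in D. yakuba, 720 of the 912 tracts on all listed chromosomes. The D. melanogaster flies were of the strain labelled "y; cn, bw, sp", with 2 ICE-seq and 2 mock libraries. The D. yakuba flies came from strains CY08, CY21B3, NY48, NY56, NY66-2 and NY81, with 1 ICE-seq and 1 mock library each. Each library was made from RNA pooled from about 50 heads. ICE-seq is inosine chemical erasing: acrylonitrile (1.6 M here, none in the mock) modifies inosine and blocks reverse transcription there. The sites exist as 1 list per species, without levels, strand or depth. No replicate of a list exists, so each test below compares 2 lists, and its p-value does not measure variation between flies, strains or libraries.

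Editing is done by ADAR enzymes, which bind base-paired RNA and turn adenosine into inosine. The ribosome and the sequencer both read inosine as guanosine. A long, even duplex is edited at many adenosines, whereas a short or interrupted duplex is edited at a few chosen ones. In flies the enzyme is known mainly for its work in the nervous system, where many of its targets encode ion channels and synaptic proteins. The duplex often pairs an exon with a stretch of intron. The lists name no genes, and tracts are therefore given by position, on dm3 for D. melanogaster and droYak2 for D. yakuba. Genome sequence was not used here.

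Both lists held many isolated sites and a few rich tracts that carried much of the list. Tracts of 1 site numbered 179 (53.1% of tracts) in D. melanogaster and 218 (56.9%) in D. yakuba. Tracts of 8 or more sites numbered 30 and held 428 sites (41.0% of the sites) in D. melanogaster, and numbered 27 and held 392 sites (37.9%) in D. yakuba. The 10 richest tracts held 22.0% of the sites of D. melanogaster and 22.0% of those of D. yakuba. The mean was 3.10 sites per tract in D. melanogaster and 2.70 in D. yakuba, with at most 33 and 39 sites in one tract. Intermediate tracts of 4 to 7 sites made up 13.1% of tracts and 22.6% of sites in D. melanogaster, against 9.40% and 17.9% in D. yakuba.

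**Figure D1:**
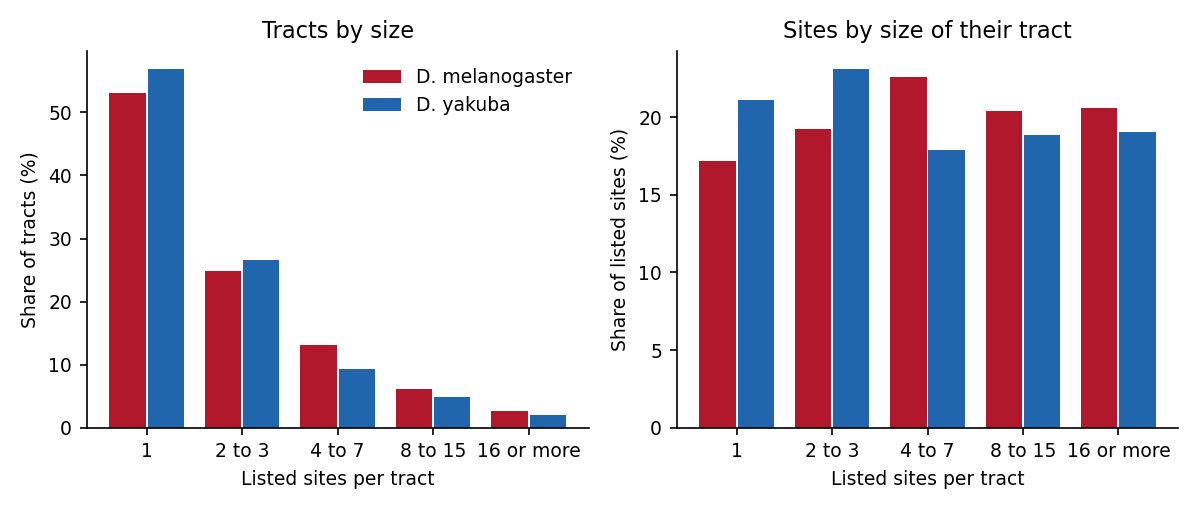
Share of tracts (left, %) and share of listed sites (right, %) by the number of sites in the tract, D. melanogaster (red) and D. yakuba (blue). Isolated sites were 53.1% of tracts but 17.1% of sites in D. melanogaster, and 56.9% of tracts and 21.1% of sites in D. yakuba.

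None of the 5 comparisons of tract layout, chosen with earlier results of these data known, passed Fisher's exact test. The share of tracts with 2 or more sites was 46.9% in D. melanogaster (158 of 337, exact 95% binomial interval 41.5 to 52.4) and 43.1% in D. yakuba (165 of 383, 38.1 to 48.2), with a two-sided exact p of 0.329 and a Benjamini-Hochberg adjusted p of 0.509 over the 5 shares. The share with 8 or more sites was 8.90% (6.09 to 12.5) in D. melanogaster, against 7.05% (4.70 to 10.1) in D. yakuba (exact p = 0.407, adjusted p = 0.509). These intervals cover counting error only, and they overlap for each of the 5 shares. A p above 0.05 does not show that the layouts were alike. Neighbouring tracts may lie in the same gene, so tracts are not fully independent either.

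Tracts of D. melanogaster were longer at the median, which was not itself tested, and the share reaching 1000 bp did not pass its test. Among tracts of 2 or more sites the median length was 1492 bp (quartiles 173 and 7246 bp) in D. melanogaster and 901 bp (quartiles 114 and 5312 bp) in D. yakuba. Of these tracts, 90 of 158 (57.0%) reached 1000 bp in D. melanogaster, against 81 of 165 (49.1%) in D. yakuba, a difference of 7.87 percentage points (two-sided Fisher's exact p = 0.181, adjusted p = 0.453). With sites joined at 1000 bp or less, the difference turned to -3.70 points. Tract lengths thus hold for the joining distance used. The longest tract spanned 37377 bp in D. melanogaster and 36447 bp in D. yakuba. Among tracts of 16 or more sites the order of the medians was the opposite, 14317 bp in the 9 D. melanogaster tracts and 20352 bp in the 8 D. yakuba tracts.

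Sites within tracts lay close together in both species, often on directly neighbouring bases. The gaps within tracts numbered 707 in D. melanogaster and 651 in D. yakuba, with medians of 50 and 88 bp. Gaps of 1 bp were the most frequent size, 104 (14.7%) in D. melanogaster and 85 (13.1%) in D. yakuba. Gaps of 2 to 10 bp were 19.7% of the gaps in D. melanogaster against 15.8% in D. yakuba, and those of 11 to 100 bp were 20.2% and 23.0%. The cumulative curves drew together between 101 and 1000 bp, where gaps made up 21.8% in D. melanogaster against 24.3% in D. yakuba. Longer gaps were 23.6% and 23.8%. The excess of short gaps in D. melanogaster was largest for 2 bp, with 34 gaps against 14 in D. yakuba.

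**Figure D2:**
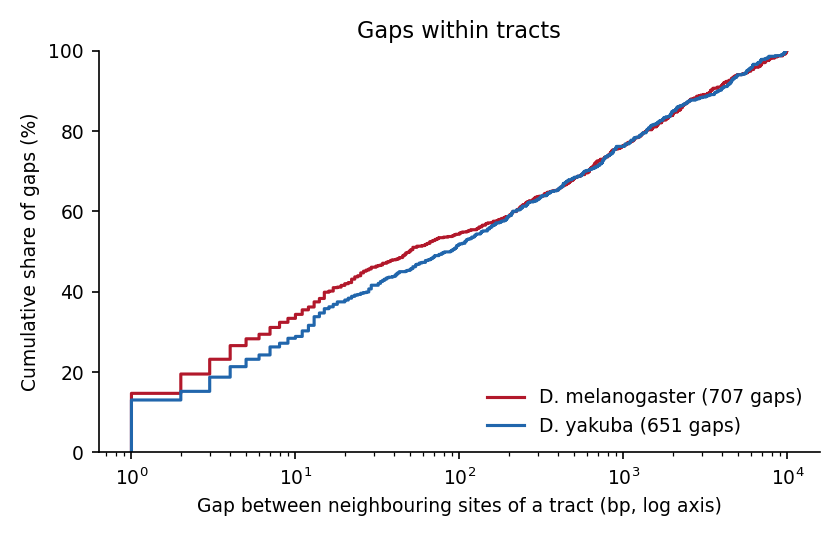
Cumulative share (%) of gaps between neighbouring sites of the same tract, by gap size in bp on a log axis, for 707 D. melanogaster gaps (red) and 651 D. yakuba gaps (blue). The D. melanogaster curve lies higher from 1 bp to about 100 bp, and the curves draw together between 101 and 1000 bp.

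Counted by tract, neither directly adjacent sites nor a short median gap differed beyond the test's threshold. Directly adjacent sites occurred in 58 of 158 D. melanogaster tracts of 2 or more sites (36.7%, 29.2 to 44.7) and in 47 of 165 D. yakuba tracts (28.5%, 21.7 to 36.0), a difference of 8.22 points (two-sided Fisher's exact p = 0.124, adjusted p = 0.453). Most such blocks were a pair of bases. The longest block was 3 bases in 9 D. melanogaster tracts and in 6 D. yakuba tracts, and 4 bases in 1 D. melanogaster tract and 2 D. yakuba tracts. A median gap of 100 bp or less was found in 47.5% of D. melanogaster tracts and 46.1% of D. yakuba tracts (exact p = 0.824, adjusted p = 0.824). A gap of 2 to 10 bp occurred in 74 of the 158 D. melanogaster tracts and 60 of the 165 D. yakuba tracts. That difference was not tested. Among gaps of 2 to 100 bp, multiples of 3, the length of a codon, were 82 of 282 gaps (29.1%) in D. melanogaster, against 90 of 253 (35.6%) in D. yakuba. The joining distance of 10000 bp fell among gaps of 9935 bp within and 10075 bp between tracts in D. melanogaster, and of 9760 bp within and 10455 bp between tracts in D. yakuba.

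Arm 2L carried a smaller share of tracts in D. melanogaster than in D. yakuba, and it was the arm of the 5 on which the lists differed beyond the test's threshold. It held 53 of 337 tracts (15.7%, 12.0 to 20.1) in D. melanogaster and 104 of 383 (27.2%, 22.8 to 31.9) in D. yakuba, a difference of -11.4 points (two-sided Fisher's exact p = 2.06e-04, adjusted p = 0.00103 over 5 arms). Isolated sites made up most of the gap. On 2L lay 27 tracts of 1 site and 26 of 2 or more in D. melanogaster, against 71 and 33 in D. yakuba. As a share of all tracts of that kind, 2L held 15.1% of isolated sites in D. melanogaster, against 32.6% in D. yakuba. It held 16.5% of the tracts with 2 or more sites in D. melanogaster against 20% in D. yakuba. Whether the 2 kinds differ from each other in this was not tested. As with the layout shares, the comparison of arms was chosen with earlier results of these data known.

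Isolated sites on 2L were spread along the arm in both lists. They occurred in 16 windows of 1 Mb, at most 3 per window, in D. melanogaster, and in 21 windows, at most 7 per window, in D. yakuba. Between the first and last listed site, 2L had 2.58 tracts per Mb over 20.5 Mb in D. melanogaster and 4.94 per Mb over 21.1 Mb in D. yakuba. The median distance between neighbouring tracts on 2L was 293 kb in D. melanogaster and 106 kb in D. yakuba. The arm held 5 tracts of 8 or more sites in each list. Whether 2L holds the same genes in both genomes was not tested. The number of strains (1 in D. melanogaster, 6 in D. yakuba) cannot be told apart from the species.

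**Figure D3:**
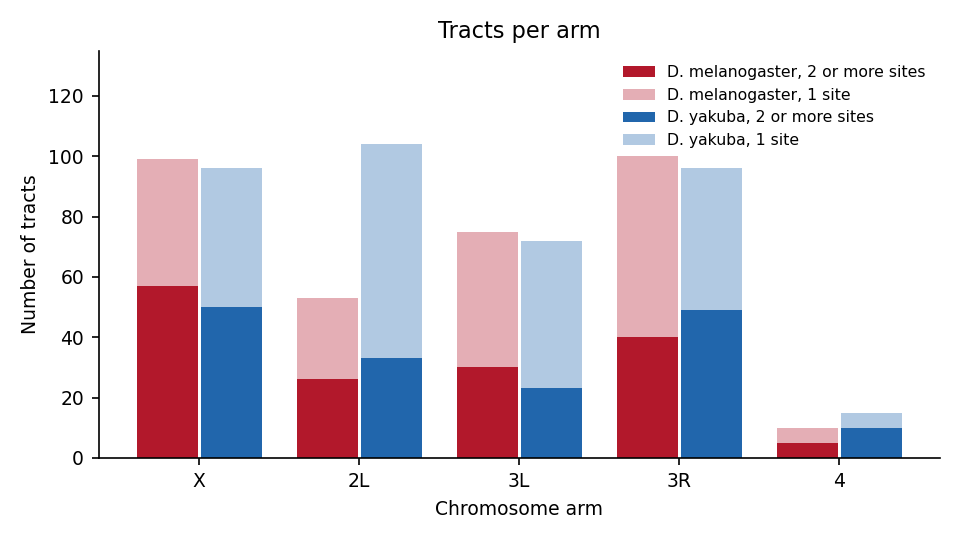
Number of tracts on each arm, D. melanogaster (red, left bar) and D. yakuba (blue, right bar), with tracts of 2 or more sites in the dark part and isolated sites in the light part. On 2L the bars reach 53 in D. melanogaster and 104 in D. yakuba, with 27 and 71 isolated sites.

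The shares of the other 4 arms did not differ beyond the test's threshold. X held 99 tracts (29.4%) in D. melanogaster and 96 (25.1%) in D. yakuba (Fisher's exact test, adjusted p = 0.334), and 3L held 75 (22.3%) and 72 (18.8%) (adjusted p = 0.334). On 3R there were 100 tracts (29.7%) in D. melanogaster and 96 (25.1%) in D. yakuba (Fisher's exact test, adjusted p = 0.334). On the small chromosome 4 there were 10 tracts in D. melanogaster and 15 in D. yakuba (Fisher's exact test, adjusted p = 0.545). Shares sum to the whole, so the shares of the arms are not independent of each other. Chromosome 4 was the most densely covered arm in both, with 8.71 tracts per Mb in D. melanogaster and 11.8 in D. yakuba.

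By mean number of sites, tracts on X ranked first in both species. X tracts averaged 4.16 sites in D. melanogaster, against 2.23 to 3.26 on the other arms. In D. yakuba they averaged 3.48 sites, against 2.29 to 2.61. The median of tracts with 2 or more sites was 5 sites on X against 3 to 4 on the other arms in D. melanogaster. In D. yakuba that median was 3 sites on X, as on 3L and 3R. Of the X tracts with 2 or more sites, 14 of 57 (24.6%) had 8 or more sites in D. melanogaster, against 16 of 101 (15.8%) on the autosomes (two-sided Fisher's exact p = 0.208, adjusted p = 0.252 over 2 species). The corresponding shares in D. yakuba were 11 of 50 (22.0%) and 16 of 115 (13.9%) (exact p = 0.252, adjusted p = 0.252). Neither difference passed, and with sites joined at 1000 bp the D. yakuba one turned to -1.84 points. On 3R the order of the species was the opposite of that on X, with a mean of 2.23 sites per tract in D. melanogaster and 2.61 in D. yakuba.

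Some tracts showed the same fine spacing in both species. A shared run was defined as 4 or more consecutive sites with identical gaps, in either orientation, in a D. melanogaster tract and a D. yakuba tract of the same arm. Of tracts with 4 or more sites, 10 of 74 in D. melanogaster (13.5%) had one, as did 10 of 63 in D. yakuba (15.9%), and they formed 10 pairs, each tract in 1 pair. The same search across different arms found 3 pairs, which involved 3 D. melanogaster tracts (4.05%) and 2 D. yakuba tracts (3.17%). Per 1000 tract pairs compared, this was 7.75 on the same arm (1290 compared) and 0.890 on different arms (3372 compared).

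Runs on the same arm were longer than those on different arms. Between different arms, runs spanned 3 to 5 bp, that is, dense blocks of nearly adjacent sites. On the same arm the longest run of a pair spanned 27 to 283 bp in 9 of 10 pairs. The remaining pair, on X, rested on 4 sites within 4 bp (gaps of 1, 2 and 1 bp) that matched in both orientations. Comparing each list with itself gave matches of the short kind as well: 6 of 2701 pairs of different D. melanogaster tracts, with spans of 4 to 7 bp, and 2 of 1953 pairs of D. yakuba tracts, with spans of 3 to 4 bp. Requiring a span of 20 bp or more, a setting chosen after these values were seen, left 9 pairs on the same arm and 0 of 3372 between different arms.

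Both runs of 6 sites lay on 3L. The longer one covered a whole D. melanogaster tract, all 6 sites at 3L from 4369162 to 4369445 (dm3), whose gaps of 22, 1, 28, 209 and 23 bp recurred unchanged within a D. yakuba tract of 9 sites at 3L from 4941692 to 4943284 (droYak2). The gap of 209 bp was the largest within any shared run. The other run matched in reverse order. Its 6 sites within a D. melanogaster tract of 11 sites at 3L from 2937497 to 2944933 had gaps of 1, 52, 32, 29 and 1 bp, found reversed in a D. yakuba tract of 21 sites at 3L from 8990838 to 9002973. A site 392 bp before the run was also at the identical distance in both species, although in D. yakuba other sites lay between.

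Several of the richest tracts of the 2 species matched each other on X and 2L. The D. melanogaster tract with 28 sites at X from 16354271 to 16376726 matched the richest D. yakuba tract, with 39 sites at X from 10472025 to 10497694. They shared a run with gaps of 36, 25 and 29 bp, and a block of 4 adjacent bases. The block followed the run at 492 bp in D. melanogaster and at 502 bp in D. yakuba. The richest D. melanogaster tract, with 33 sites at X from 17820657 to 17858033, matched the third richest of D. yakuba, with 26 sites at X from 16439292 to 16462756, by a run with gaps of 34, 1 and 3 bp. Those tracts also opened alike: the first gaps were 4027, 7, 232, 2, 50, 6 and 763 bp in D. melanogaster and 4019, 7, 75, 157, 2, 51, 6 and 757 bp in D. yakuba. The list of D. yakuba thus had 1 more site inside the stretch of 232 bp.

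On 2L the tract of 22 D. melanogaster sites from 9799321 to 9814785 matched the second richest tract of D. yakuba, 30 sites from 12487576 to 12511405, by gaps of 52, 1 and 15 bp. The 21 D. melanogaster sites from 13485127 to 13492507 matched 20 D. yakuba sites at 2L from 9904171 to 9919388 by gaps of 21, 3 and 3 bp. Here D. melanogaster had an additional site: the next gaps were 3, 1 and 4 bp in D. melanogaster and 4 and 4 bp in D. yakuba, so that the sites on either side kept their distance. In these 4 rich pairs the run covered 12.1% to 19.0% of the D. melanogaster sites and 10.3% to 20% of the D. yakuba sites. Most sites of these tracts were thus outside the longest run.

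The remaining pairs had smaller tracts. On X, 6 D. melanogaster sites from 21901552 to 21904571 and 8 D. yakuba sites from 21344941 to 21348125 shared gaps of 1, 15 and 17 bp. On 3R all 4 sites of the D. melanogaster tract from 7626883 to 7626994, with gaps of 3, 28 and 80 bp, recurred reversed among 6 D. yakuba sites from 16790194 to 16790767. The last pair on 3R joined 7 D. melanogaster sites from 20532273 to 20534078 to 15 D. yakuba sites from 25963346 to 25995544, by reversed gaps of 3, 1 and 26 bp. The pair of the 4-bp run joined 7 D. melanogaster sites at X from 3235465 to 3236821 to 4 D. yakuba sites from 6061548 to 6061552. By arm there were 4 pairs on X, 2 each on 2L, 3L and 3R, and 0 on chromosome 4. Order along an arm was not always kept: on 2L and on 3L the tract nearer the start of the D. melanogaster arm was the farther one in D. yakuba, and 3 of 10 pairs ran in reverse.

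Matched tracts usually had more sites and a longer extent in D. yakuba. The D. yakuba tract had more sites in 7 of 10 pairs and was longer in 8 of 10. The exceptions in number were the X pairs of 33 and 26 sites and of 7 and 4 sites, and the 2L pair of 21 and 20 sites. In all, matched tracts held 145 sites (13.9% of the list) in D. melanogaster and 178 sites (17.2%) in D. yakuba. Runs contained 37 gaps, of which 12 were of 1 bp.

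Sites outside the runs were compared through chains, that is, series of sites that occur in the same order in both species, with steps of 100 bp or less identical and longer steps within 10 bp of each other, while other sites may lie between. Chains were defined after the runs had been seen, and their lengths include the sites of the run. Between different arms the longest chain had 6 sites. On the same arm 6 pairs exceeded this, all of them with a shared run, and 0 pairs without a run did. The chains had 11 sites in the X pair of 28 and 39 sites and in the 2L pair of 21 and 20 sites, 9 in the 2L pair of 22 and 30, 8 in the 3L pair of 11 and 21, and 7 in the 3R pair of 7 and 15, there every site of the D. melanogaster tract. The X pair of 33 and 26 sites had a chain of 8, or of 7 when it was made to pass through the run. In the other 4 pairs the chain was no longer than the run, at 6, 4, 4 and 4 sites. In the richest matched D. melanogaster tracts the chains took 11 of 28, 8 of 33 and 9 of 22 sites, so that most sites lay outside. The D. melanogaster tract of 21 sites on 2L differed, with 11 of 21 sites in its chain, and so did its D. yakuba partner, with 11 of 20.

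Long steps differed in length by a few bases. In the chains through the runs of these 6 pairs, 15 of 47 steps were over 100 bp, and 1 of the 15 was identical in both species. The D. melanogaster step was the longer in 6 and the D. yakuba step in 8. Examples from the X pair of 28 and 39 sites are 847 bp in D. melanogaster against 854 bp in D. yakuba, and 1598 against 1605 bp. In the 2L pair of 22 and 30 sites, a step of 6065 bp in D. melanogaster stood against 6069 bp in D. yakuba. Since the definition admits only steps within 10 bp, the size of these differences is set by it.

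**Figure D4:**
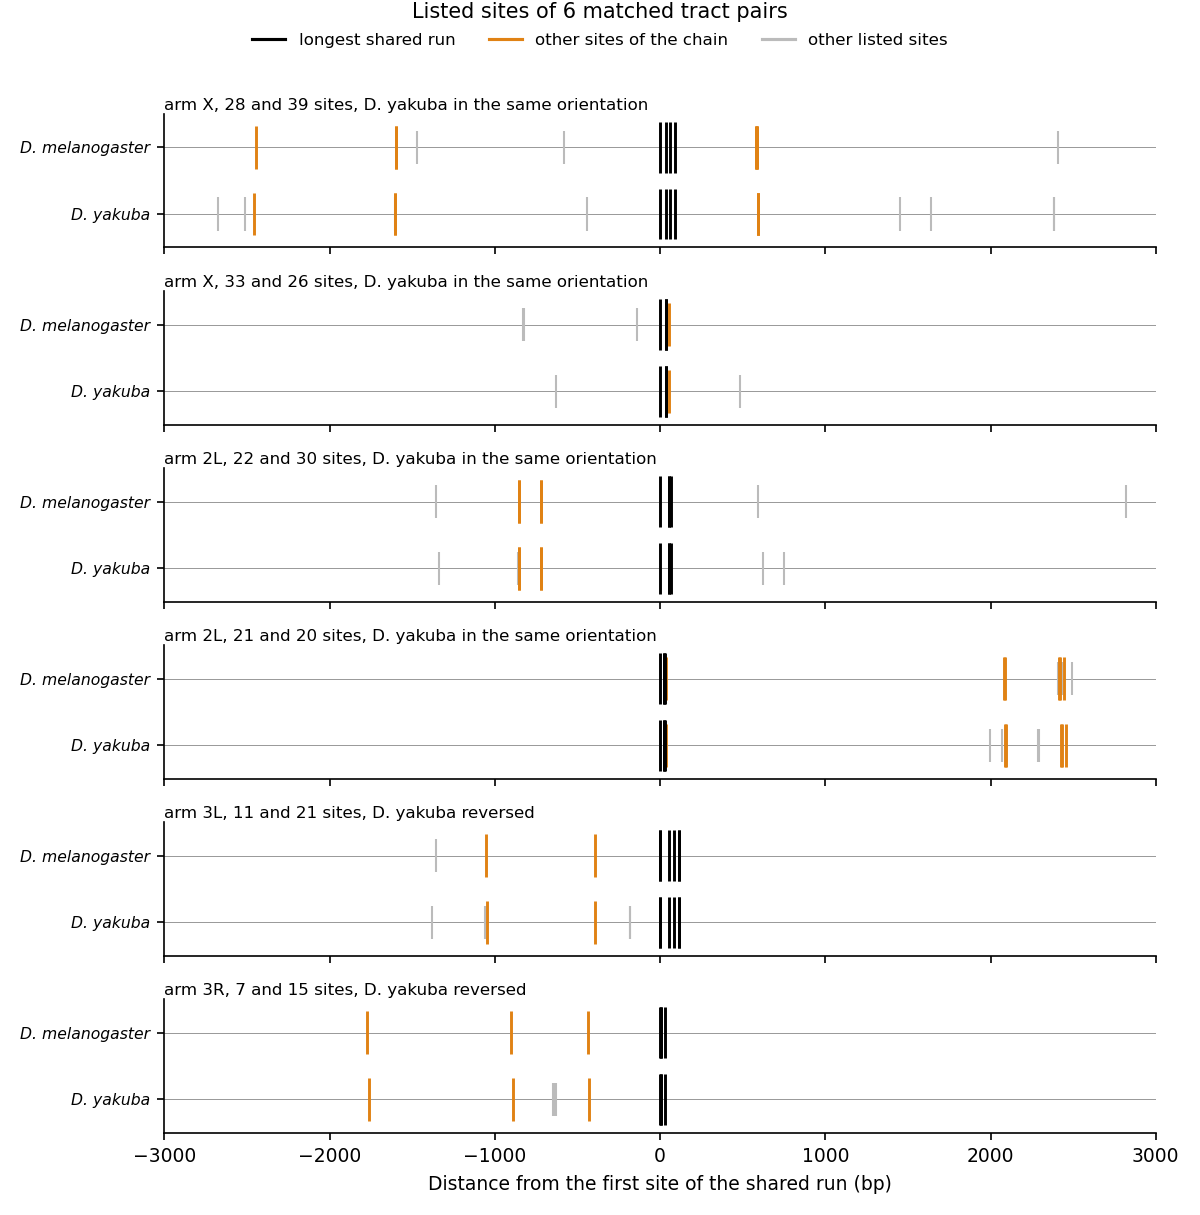
Listed sites of the 6 tract pairs with chains longer than any found between different arms, as ticks at their distance in bp from the first site of the shared run, within 3000 bp on either side, D. melanogaster above and D. yakuba below (turned round where the match was reversed). Black ticks mark the longest shared run, orange ticks other sites of the chain through it, and grey ticks sites outside the chain.

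Large tracts without a shared run occurred in both species. Of tracts with 16 or more sites, 4 of 9 were matched in D. melanogaster, against 5 of 8 in D. yakuba. Of those with 8 to 15 sites, 1 of 21 was matched in D. melanogaster, against 3 of 19 in D. yakuba. Of those with 4 to 7 sites, 5 of 44 were matched in D. melanogaster, against 2 of 36 in D. yakuba. The share matched thus followed the order of size in D. yakuba but not in D. melanogaster, and no test was made of it. The richest tract without one had 26 sites in D. melanogaster, at X from 17871687 to 17885717, which began 13654 bp after the end of the tract of 33 sites. With joining at 20000 bp these 59 sites fall in the same tract, which holds a shared run. The unmatched state of the 26 sites thus depends on the joining distance. In D. yakuba the richest tract without a shared run had 24 sites, at X from 14830066 to 14866512, and this was also the longest tract of that list. Among the 5 richest tracts of D. melanogaster, those of 23 sites at X from 11843915 to 11871571 and at 2L from 14077162 to 14091478 also had none. Among those of D. yakuba, the tract of 21 sites at 2L from 14171090 to 14188327 had none. A missing run does not show that the genes lack editing in the other species, since 1 additional or missing site, or a gap changed by 1 bp, breaks a run. Arm 2R was not searched in either list, so a run shared with a tract there would be missed.

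The edited strand and the detection of D. melanogaster sites in other libraries were not used by the matching. They come from tables of base differences of 4 further mock libraries of the same strain, sequenced as replicates 1 and 2 on HiSeq (50-nt reads) and on NextSeq (86-nt reads). Of the 1044 D. melanogaster sites of the 5 arms, the HiSeq tables list 486 in replicate 1 and 809 in replicate 2, and the NextSeq tables list 435 in replicate 1 and 761 in replicate 2. They give no read counts, so depth is unknown and a missing site may be uncovered. Whether they contributed to the list is not stated. In each of the 10 matched D. melanogaster tracts the known edited bases were of 1 kind, A (forward strand) or T (reverse strand), over 136 sites of known base. This was also so in 61 of 63 unmatched tracts of 4 or more sites with 2 or more known bases (96.8%), so a single strand was not particular to matched tracts. The 3 reversed pairs included tracts of either strand, with T at 3R from 7626883 and A at 3L from 2937497 and at 3R from 20532273.

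The share of tracts well covered by all 4 tables did not differ between matched tracts and other tracts of 4 or more sites beyond the test's threshold. A tract was counted when 50% or more of its sites were in all 4 tables. This held for 5 of 10 matched tracts (50.0%, 18.7 to 81.3) and 18 of 64 unmatched ones (28.1%, 17.6 to 40.8), a difference of 21.9 points (two-sided Fisher's exact p = 0.268). The difference was 13.1 points without the table of NextSeq replicate 1, 8.75 points without both tables of replicate 1, and 12.5 points without both of replicate 2. With the HiSeq tables alone it was 6.88 points, and with presence in at least 1 table it was 3.12 points. The median share of a tract's sites in all 4 tables was 47.0% in matched and 25% in unmatched tracts, and both kinds ranged from 0 to 100%. Matched tracts were also larger, with a median of 9 sites against 6. The X tract of 28 sites had 25 sites in all 4 tables, whereas the X tract of 33 sites had 13 and the unmatched X tract of 26 sites had 0. Of those 26 sites, 22 were in at least 1 table, all 22 of them in replicate 2 of HiSeq and 17 in replicate 2 of NextSeq, against 1 in each table of replicate 1. Within matched tracts, 21 of 48 sites in shared runs (43.8%) and 55 of 97 other sites (56.7%) were in all 4 tables.

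**Figure D5:**
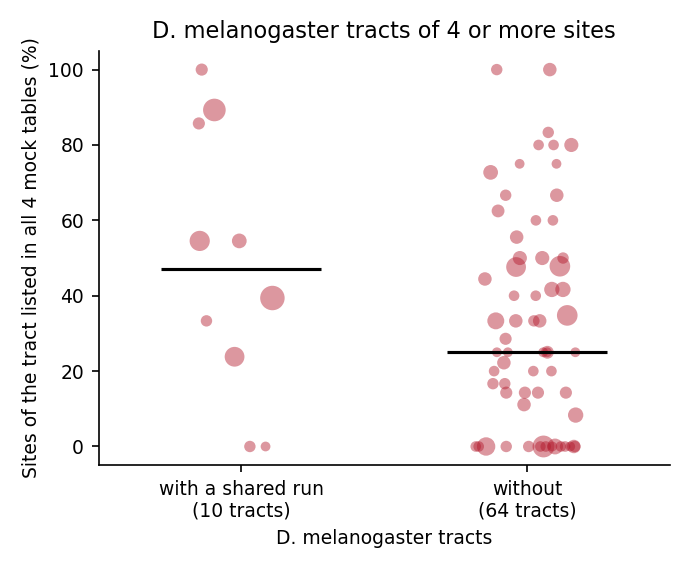
Share (%) of a tract's sites listed in all 4 mock tables, for D. melanogaster tracts of 4 or more sites with a shared run (left, 10 tracts) and without (right, 64 tracts). Each point is a tract, its area grows with the number of sites, and lines mark medians of 47.0% and 25%; points are shifted sideways for visibility.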

How the data were processed

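The authors' deposited site lists hold 1-bp positions per species, with no level, strand, score or sample. Reads were mapped with TopHat 2.0.6 and Bowtie 2.0.2 to dm3 or droYak2, with up to 4 mismatches and 1 alignment per read, and remapped with bsmap 2.74 where unmapped, per the labels' protocols. SAMtools 0.1.19 appears in the submitters' processing notes. The sources used here do not give how sites were called, or from which libraries. A mismatch limit can lose reads of densely edited stretches, and so sites within tracts.

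Positions were taken 1-based from the third column. Shares of tracts were compared by Fisher's exact tests with Benjamini-Hochberg adjustment within 5 layout shares, 5 arms and 2 species, and intervals are Clopper-Pearson. Members, thresholds and lists were chosen with earlier results of these data known. Tracts named are the 5 richest and the longest per species, all matched pairs and the richest unmatched tracts. In the tables of base differences, a site counted as listed when A-to-G or T-to-C stood there. Sites outside the 5 arms (194 in D. melanogaster, 216 in D. yakuba) were not used here. Arm 2R was not among the 5, and each arm share is a share of the tracts on those 5 arms. Alternatives covered joining distance, merged sites, arm X, run length and span, and the mock tables. Steps were tested on simulated data. Python 3.11.15, numpy 2.4.6, scipy 1.17.1 and matplotlib 3.10.9 were used.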

Additional observations from a re-analysis of the deposited data

How the results depend on the processing

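At joining distances of 1000, 5000 and 20000 bp the lower share of tracts on 2L in D. melanogaster passed each time. Differences were -11.3 to -9.22 points, with adjusted p of 4.87e-04 to 0.00240 by Fisher's exact test. Merging sites within 10 bp gave the main values again for every arm, -11.4 points on 2L. Such merging hardly moves the ends of tracts, so it is no check of shares by arm. The 11 other shares tested between lists or arms passed in none of their 46 alternative values, and 3 of these values turned direction: tracts of 1000 bp or more (-3.70 points) and X against autosomes in D. yakuba (-1.84 points) with joining at 1000 bp, and a median gap of 100 bp or less (-1.87 points) with close sites merged. The number of matched tracts in D. melanogaster and D. yakuba was 30 and 27 with runs of 3 sites, 2 and 2 with runs of 5, 5 and 5 with runs spanning 50 bp, and 6 and 6 without arm X. These settings change how many gaps must match, the span required, or the tracts searched. Runs of 3 sites also matched 146 tract pairs between different arms, against 58 on the same arm. Added after the data were seen, runs of 3 sites spanning 20 bp gave 14 pairs on the same arm and 8 on different arms, and those spanning 100 bp gave 4 and 2. Among tracts of 4 or more sites, 3372 pairs were compared between different arms and 1290 on the same arm. The numbers of tracts and pairs searched with runs of 3 sites are not given here, so these counts are not rates. The joining distance left the matched pairs at 10. It could not break any run, because the largest gap within a shared run was 209 bp, below every distance tried. The difference in detection of matched tracts was 1.43 to 31.0 points over 13 alternatives (exact p of 0.170 to 1), and 8.75 to 19.4 points when 1 table or 1 replicate number was left out. No paired analysis was possible because the site lists carry no replicates and tracts, not libraries, were compared. Depth behind the lists is unknown.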
